A study of Rattus norvegicus with 22 samples.

Results

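Dlx1, Dlx2, Dlx5, Dcx, Cd24, Sp8, Sox11 and Igfbpl1 are genes associated with the neuroblast lineage of the ventral forebrain, and their transcript levels were followed rat by rat in the nucleus accumbens (NAc) in both experiments of the series. The 9 genes were taken from a fixed list of symbols, of which 8 are among the 17310 genes of the count tables, and Dlx6 was not analysed here. The genes were selected on their normalized counts in experiment 1, where several had been seen to be higher in EtOH rats. That contrast is therefore given as a description without a test, and the contrast of experiment 2 and the variation among rats within groups were tested.

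In the adult rodent brain, neural stem cells in the wall of the lateral ventricle, which lies next to the accumbens, produce neuroblasts that migrate along the rostral migratory stream and become GABAergic interneurons of the olfactory bulb. Dlx homeobox transcription factors specify GABAergic neurons of the ventral forebrain, including those of the striatum, and remain expressed in some mature interneurons. Doublecortin, the product of Dcx, stabilises microtubules in migrating neuroblasts, and Cd24 encodes a surface glycoprotein carried by neuroblasts and ependymal cells. Sp8 is a zinc-finger transcription factor of olfactory bulb interneurons, Sox11 an HMG-box factor of immature neurons, and Igfbpl1 encodes an insulin-like growth factor binding protein-like protein found in immature neurons.

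All 22 animals were male Wistar rats, an outbred strain, each housed singly, and PolyA+ RNA of the bilaterally dissected NAc of each rat was sequenced. In experiment 1, 5 rats had only water and 5 had continuous access to 6% EtOH and water for 8 weeks. In experiment 2, 6 rats received EtOH by gavage at 2.5 g/kg, 2 times daily as a 30% solution, for 3 weeks, and 6 received water by gavage. Rats of both gavage groups also drank 6% EtOH for 4 weeks before and 2 weeks after the gavage, so experiment 2 has no EtOH-naive group. The methods also state a housing time of 8 weeks for all rats, which is shorter than this schedule. Strand information was retained in the sequencing of experiment 2 and lost in that of experiment 1.

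Reads assigned to genes numbered 2962291 to 5247386 per rat in experiment 1 and 6713617 to 8765472 in experiment 2. No pair of rats within a group had counts as alike as sampling noise allows, since chi-square per degree of freedom was at least 2.74 over the 50 pairs. Projection neuron transcripts expected of accumbens tissue were abundant, with a median of 310 CPM (counts scaled to the same total in each library) for Drd1, the D1 dopamine receptor, and 986 for Ppp1r1b, the DARPP-32 protein, in experiment 1. Dividing cells were also represented, with a median of 19.4 CPM for Mki67 in experiment 1 and 21.3 in experiment 2. Transcripts of the ventricle wall were low and differed between rats, with Foxj1, the regulator of motile cilia, at 4.81 to 23.3 CPM in experiment 1 and at 0 to 7.37 CPM in experiment 2. Slc17a7, a glutamate transporter of cortical neurons, ranged from 79.7 to 593 CPM in experiment 1. It ranged from 0.139 to 437 CPM in experiment 2, so its level differed widely between rats.

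Libraries of experiment 2 varied along a single main axis. The first principal component over the 8655 genes tested held 74% of the variance there, against 26% in experiment 1. The share of reads outside annotated genes is the reads placed in no gene, divided by these plus the reads assigned to genes. Reads with several alignments were left out of it. The counting options were not given, so reads on the opposite strand of a gene may be included. After removal of the group means, this share correlated with the first component at r = -0.974 over 12 rats. The highest shares were found in EtOH gavage replicates 1 and 2 (57.98% and 56.37%) and in water gavage replicates 1 and 5 (54.5% and 52.8%), while the other 8 rats had 46.09% to 51.68%. The results of experiment 2 are therefore also given without these 4 libraries, a choice made after seeing the data. The same 4 libraries had the lowest log2 CPM of Slc17a7 in experiment 2, at 4.706 or less, where the others had 5.764 or more. They were also the lowest for the neuronal tubulin gene Tubb3, at 5.699 or less against 6.909 or more. The parts of cortical tissue and of this library axis in these values were not tested.

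The start regions of the 3 members whose transcripts differed most clearly in experiment 1 are shown here, so that the letters before each start can be compared. RefSeq sequences were matched by symbol for 6 of the 9 genes, in assembly GRCr8, which is not the build of the count tables. Each run gives the 250 bases before the annotated start, 5′ to 3′ on the strand of the gene, and capitals mark matches on either strand to TAATTA (a homeodomain core), GGGCGG (a GC box) or ACAAAG (a SOX motif).
Dlx1, chr3:76763614-76763863, plus strand: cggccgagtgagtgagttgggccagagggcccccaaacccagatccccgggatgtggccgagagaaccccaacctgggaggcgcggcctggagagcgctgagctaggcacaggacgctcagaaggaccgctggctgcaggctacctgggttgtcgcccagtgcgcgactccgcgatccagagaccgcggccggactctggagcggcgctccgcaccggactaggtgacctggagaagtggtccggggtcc
Cd24, chr20:48656227-48656476, plus strand: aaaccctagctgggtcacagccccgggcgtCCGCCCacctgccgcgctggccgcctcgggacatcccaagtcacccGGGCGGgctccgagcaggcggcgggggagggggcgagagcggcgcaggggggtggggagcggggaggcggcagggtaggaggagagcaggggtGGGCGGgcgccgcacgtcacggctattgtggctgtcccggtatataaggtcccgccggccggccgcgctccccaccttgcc
Dcx, chrX:112304162-112304411, minus strand: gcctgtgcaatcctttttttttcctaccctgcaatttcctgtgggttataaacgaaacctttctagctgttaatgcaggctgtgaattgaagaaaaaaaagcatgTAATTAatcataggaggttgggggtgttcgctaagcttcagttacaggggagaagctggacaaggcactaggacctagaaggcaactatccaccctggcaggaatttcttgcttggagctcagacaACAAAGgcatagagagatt
The Dcx region held 1 TAATTA and 1 ACAAAG, the Cd24 region 3 GGGCGG, and the Dlx1 region none of these letters. Among 33469 start regions of the same length, 4.86% held TAATTA, 30.5% GGGCGG and 16.3% ACAAAG. The share of G and C was 69.2% for Dlx1, 75.6% for Cd24 and 44% for Dcx, against a median of 51.2% over all regions. A match to these letters is a description and not a binding site.

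In experiment 1, the transcripts of Dlx1, Dcx and Cd24 were higher in EtOH rats than in water rats, and Dlx5 was somewhat lower. Dlx1 had normalized counts (counts scaled to the mean library of the experiment) of 95.1, 177.8, 142.2, 132.6 and 222.7 in the water rats and of 184.6, 270.1, 349.2, 266.8 and 251.3 in the EtOH rats, in the order of their replicate numbers. Water replicate 5 was above EtOH replicate 1, so the groups overlapped. The means were 154.1 ± 48.4 (SD, n = 5) and 264.4 ± 58.7 (SD, n = 5), a log2 fold change of 0.76 (standard error 0.19). Dcx, at 581, 543.6, 582, 483 and 603.8 normalized counts in the water rats, had 664.4, 624.2, 833.1, 844.6 and 685.1 in the EtOH rats. Each EtOH rat was above each water rat for this microtubule gene. The log2 fold change of Dcx was 0.39 (standard error 0.09), from means of 558.7 ± 47.5 (SD, n = 5) and 730.3 ± 102 (SD, n = 5). For Cd24, the water rats had 105.5, 138.7, 143.7, 122.1 and 167.2 normalized counts and the EtOH rats 167.7, 181.1, 210.9, 249.4 and 189.3. The Cd24 groups were separated only by the narrow gap between water replicate 5 and EtOH replicate 1. Its log2 fold change was 0.55 (standard error 0.13), from means of 135.4 ± 23.3 (SD, n = 5) and 199.7 ± 31.9 (SD, n = 5).

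Dlx5 was the member with a lower mean in EtOH rats. It had 123.8, 99.7, 96.3, 102.4 and 59.9 normalized counts in the water rats and 80.6, 113, 85.1, 71.8 and 59.8 in the EtOH rats, which overlapped over most of their range. Its log2 fold change was -0.21 (standard error 0.19). The symbol is also listed by RefSeq as an older name of Dlx2, and without strand in these libraries, reads of antisense transcripts over the Dlx genes could not be told apart from their own. The filter used for the test keeps genes whose base mean (the average normalized count over all rats) exceeds that of the median gene. Of the 4 members that passed it, 3 were higher in EtOH rats, beside 49.5% of all 8655 genes tested. Their median log2 fold change was 0.47, where the median over all genes was 0.00 and the middle 50% lay between -0.07 and 0.08. For 2 of the 4 members, Dcx and Cd24, the groups did not overlap and were higher in EtOH rats, beside 0.439% of all genes tested. These members were chosen with this contrast in view, and nothing is read from the counts.

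The other 4 members were below the filter in experiment 1. Dlx2, the neighbour of Dlx1 on the chromosome, had 16.9, 15.4, 17.5, 10.5 and 23.7 normalized counts in the water rats and 22.1, 21, 28.4, 23.6 and 22.1 in the EtOH rats. Only water replicate 5 reached the range of the EtOH group. Sp8 was the least abundant, with 1.3, 9.2, 4.4, 7.9 and 13.3 normalized counts in the water rats and 3.9, 12, 22.2, 15.4 and 10 in the EtOH rats. The lowest Sp8 value of each group was in replicate 1, and the groups overlapped widely. Sox11 was at 32.1 to 44.3 normalized counts in the water rats and at 24.7 to 61.2 in the EtOH rats, so the EtOH group enclosed the water group. Igfbpl1 was at 18.4 to 51.4 normalized counts in the water rats and at 35.1 to 51.3 in the EtOH rats. Without the filter, the log2 fold changes were 0.44 for Dlx2 (standard error 0.25), 0.78 for Sp8 (standard error 0.46), 0.26 for Sox11 (standard error 0.22) and 0.30 for Igfbpl1 (standard error 0.24). With single rats left out, these values ranged from 0.33 to 0.61 for Dlx2, from 0.48 (without EtOH replicate 3) to 1.17 (without water replicate 5) for Sp8, from 0.12 (without EtOH replicate 3) to 0.39 (without EtOH replicate 1) for Sox11 and from 0.17 (without water replicate 4) to 0.49 (without water replicate 2) for Igfbpl1. Dlx5, at -0.35 without EtOH replicate 2 and -0.11 without water replicate 1, was the exception among the 8 genes, of which 7 were higher in EtOH rats.

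**Figure D1:**
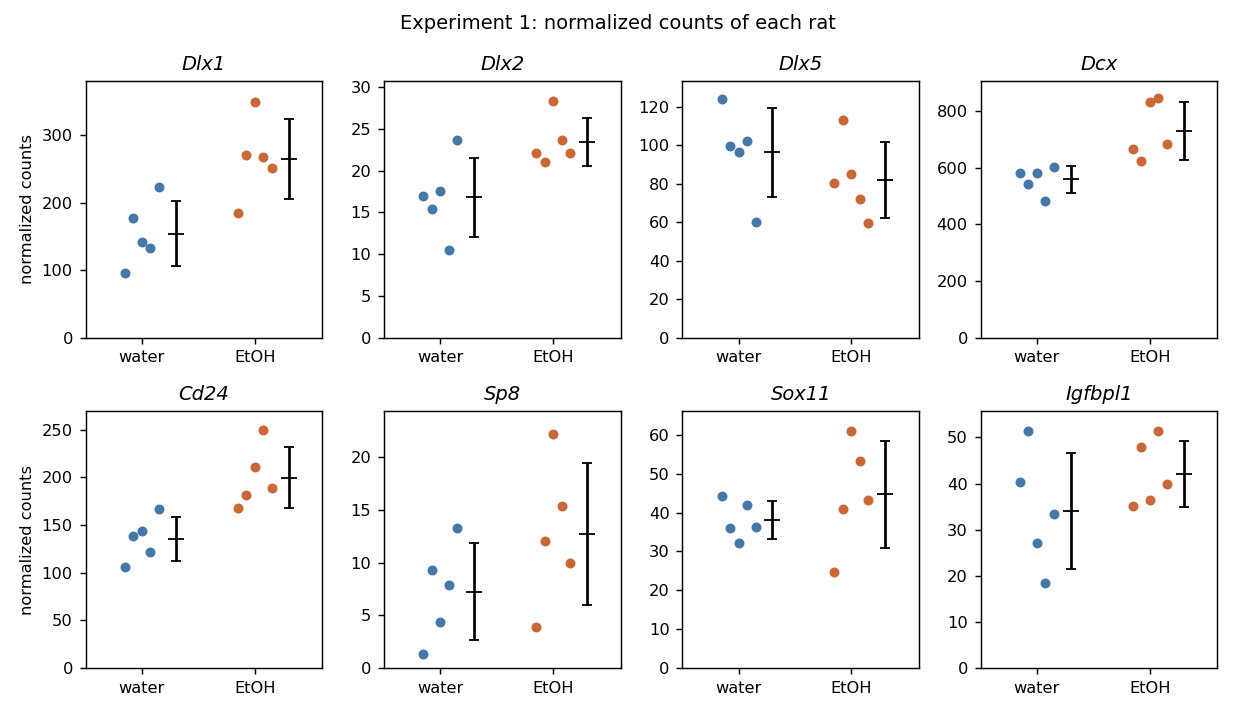
Normalized counts of the 8 genes in each rat of experiment 1 (y axes from 0), with water rats in blue and EtOH rats in orange, and the mean ± SD of each group of 5 in black. Every EtOH rat lies above every water rat for Dcx and, by a narrow gap, for Cd24, while the groups overlap for the other 6 genes.

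Lists of genes of related and neighbouring cells were set beside the members in experiment 1, where no gene passed after adjustment in edgeR. In bulk tissue, more cells of a type and more RNA per cell cannot be told apart. Of the 15 other neuroblast genes that were tested, 3 were higher in EtOH rats at an unadjusted P under 0.05 and 0 lower, beside 3.0% and 2.58% of all genes tested (5.58% in either direction). These were Dpysl3 and Tubb2b, of the neuronal cytoskeleton, and the transcription factor Sox4, with log2 fold changes of 0.49 (standard error 0.18), 0.19 (standard error 0.09) and 0.34 (standard error 0.13). The median log2 fold change of the 15 was only 0.04, with 11 above 0, beside 49.5% of all genes tested. Of the 9 tested genes of stem and dividing progenitor cells, 3 were higher at an unadjusted P under 0.05, and 0 were lower. The 3 were Vim, Top2a and Pax6, and in direction 8 of the 9 genes were above 0. Vim, an intermediate filament of radial glia, ependymal cells and astrocytes, had 265.3 ± 80.1 (SD, n = 5) normalized counts in water rats and 470.8 ± 129 (SD, n = 5) in EtOH rats. Top2a, the topoisomerase of dividing cells, had 24.6 ± 15.9 (SD, n = 5) and 67.3 ± 23.1 (SD, n = 5), and each EtOH rat, at 42.9 or more, was above each water rat, at 41.1 or less. Pax6, a transcription factor of olfactory progenitors, had 78.5 ± 16.1 (SD, n = 5) and 110 ± 16.6 (SD, n = 5). Both tested genes of ependymal cells, Ak7 and Foxj1, were higher in EtOH rats as well, with log2 fold changes of 1.23 (standard error 0.46) and 0.65 (standard error 0.28). Only 2 of the 13 measured ependymal genes and 9 of the 17 progenitor genes were tested. Top2a, Ak7 and the neuroblast gene Nrep passed the filter only through the EtOH rats. Their water means (24.6, 43.05 and 43.61) were below its limit of 43.636, for Nrep only narrowly. Being tested and being higher were therefore not independent for these genes. The summed level of the 13 measured ependymal and choroid plexus genes was 17.2 to 91 CPM in water rats and 61 to 127 CPM in EtOH rats, and Ttr, the defining transcript of choroid plexus, was at 8.67 CPM or less in every rat.

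Among genes of mature accumbens neurons, lower values were seen for some interneuron and projection neuron genes. Of the 10 tested interneuron genes, 5 were lower in EtOH rats at an unadjusted P under 0.05 and 0 higher. Over all genes tested, 2.58% were lower and 3.0% higher at that threshold, the share for the lists below as well. The 5 were the transcription factors Lhx6 and Lhx8, the acetylcholine synthase Chat, the nitric oxide synthase Nos1 and parvalbumin (Pvalb). Their log2 fold changes were between -0.71 and -0.30. Lhx8 and the projection neuron gene Isl1 passed the filter only through the water rats. Their means were 63.2 and 55.62 in water rats and 38.15 and 40.11 in EtOH rats. Of the 13 projection neuron genes, the muscarinic receptor gene Chrm4 and Drd1 were lower at an unadjusted P under 0.05, and 0 were higher. The log2 fold changes of Chrm4 and Drd1 were -0.54 (standard error 0.13) and -0.50 (standard error 0.17). In direction, 2 of the 13 genes were above 0. All 4 tested genes of septal neurons were above 0, and 2 were higher at an unadjusted P under 0.05. These were Lhx2 and Trpc4, at log2 fold changes of 0.26 (standard error 0.10) and 0.61 (standard error 0.24). A single gene passed in each of 3 further lists, Etv1 for olfactory interneurons (higher), Pdgfra for oligodendrocyte precursors (higher) and Cux2 for cortical neurons (lower), out of 3, 8 and 7 tested. These 3 genes were already among the top genes of this contrast in the study, and the lists were chosen with earlier results known. Their passing is therefore no separate support. Cux2 stood apart from its list, since the other 6 cortical genes were higher in EtOH rats without passing, among them Neurod2 at 0.43 (standard error 0.41), and the median log2 fold change of the 7 was 0.11. The cortical genes Neurod2 and Fezf2 passed the filter only through the EtOH rats, with water means of 40.1 and 43.3 against a limit of 43.636. Next by P in the olfactory and precursor lists were Calb1 at 0.45 (standard error 0.26) and Cspg4 at 0.15 (standard error 0.11). The lowest FDR of any gene in edgeR's test was 0.536, so 0 genes of these lists passed at 0.1. DESeq2, which the study used on these same data, gave 4 of them, Chrm4, Cux2, Etv1 and Pdgfra, at an adjusted P between 0.0933 and 0.0994. The part of these other cells in the values of Dlx1, Dcx and Cd24 was not tested.

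In experiment 2, the comparison asked what forced EtOH added to voluntary drinking, and 0 of the 4 tested members passed at an FDR of 0.1 by the edgeR test, beside 0% of the 8655 genes. At an unadjusted P under 0.05 there were also 0 members, beside 1.33% of all genes (0.705% higher and 0.624% lower). That count became 1, Dcx, with a replicate block, with all 4 groups in one fit, without water gavage replicate 1 and without EtOH gavage replicate 4, all at an FDR above 0.1, and DESeq2 gave 0 members at either threshold. Dcx had 795 to 1849 normalized counts after water gavage (median 975.4, n = 6) and 897.5 to 2329 after EtOH gavage (median 1415, n = 6). The highest Dcx values were those of EtOH gavage replicates 1 and 2 and water gavage replicate 1, which are also the 3 libraries with the most reads outside annotated genes. Its log2 fold change was 0.50 (standard error 0.27, 95% interval from -0.08 to 1.09), at an FDR of 0.675 in edgeR's test (exact permutation test, two-sided, p = 0.136, where 0.00216 is the smallest p possible with 6 rats against 6). Without the 4 libraries named above, the log2 fold change of Dcx was 0.28 (standard error 0.17), and after adding the outside-gene share as a covariate it was 0.10 (standard error 0.18).

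Dlx1 had 101.2 to 216.6 normalized counts after water gavage (median 168.1, n = 6) and 114.4 to 325.6 after EtOH gavage (median 204.5, n = 6). EtOH gavage replicates 3, 5 and 6 were above every water gavage rat, and replicates 1 and 2 were among the lowest values of the experiment. The log2 fold change was 0.36 (standard error 0.28, 95% interval from -0.25 to 0.96), at an FDR of 0.675 in edgeR's test (exact permutation test, p = 0.32). It was 0.49 (standard error 0.23) without the 4 libraries and 0.68 (standard error 0.21) with that covariate, where Dlx1 alone of the members had an unadjusted P under 0.05, so Dlx1 and Dcx moved in opposite directions under the same adjustments. Without EtOH gavage replicate 3, the highest rat, the log2 fold change of Dlx1 was 0.19. Neither of the library-share settings gave an FDR under 0.1 in edgeR's test, the FDR of Dlx1 being 0.451 and 1.

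Cd24 had 254.5 to 742.1 normalized counts after water gavage (median 441.2, n = 6) and 404.8 to 582.1 after EtOH gavage (median 464.6, n = 6). The water gavage group held both the lowest and the highest rat, in replicates 4 and 5. The log2 fold change of Cd24 was 0.09 (standard error 0.21, 95% interval from -0.36 to 0.55) (exact permutation test, p = 0.519). Dlx5 was at 47.3 to 117.8 normalized counts after water gavage (median 74.1, n = 6) and at 48.5 to 75.5 after EtOH gavage (median 61, n = 6). Its log2 fold change was -0.33 (standard error 0.22, 95% interval from -0.81 to 0.15) (exact permutation test, p = 0.188). Dlx5 passed the filter only through the water gavage group, with means of 76.8 against 61.2 after EtOH gavage and a limit of 66.443. Across the 4 tested members, 3 were higher after EtOH gavage, beside 50.1% of all genes tested, and the groups did not overlap for 0 members, beside 0% of all genes higher and 0.0116% lower. The median log2 fold change of the 4 was 0.22, where the middle 50% of all genes lay between -0.24 and 0.17.

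Members below the filter of experiment 2 were Dlx2, Sp8, Sox11 and Igfbpl1. Dlx2 was counted with 47 reads over the 12 rats, 36 of them after water gavage and 11 after EtOH gavage. It had 0 reads in 4 rats, water gavage replicate 5 and EtOH gavage replicates 1, 2 and 5, and 16 reads in water gavage replicate 2, which held the most. Sp8 had 8 reads in all, no more than 3 in any rat and 0 in 7 rats, so no fold change is given for it. A count of 0 allows for up to 3 reads in a library. Sox11 was at 7.15 to 18 normalized counts after water gavage (median 11, n = 6) and at 5.47 to 14.8 after EtOH gavage (median 10.7, n = 6), and its exact permutation test gave p = 0.528. Igfbpl1 was at 28.2 to 55.3 normalized counts (median 48.2, n = 6) and at 16.7 to 53.9 (median 48.2, n = 6), with p = 0.68 in the exact permutation test. The exact permutation test gave p = 0.152 for Dlx2 and p = 0.273 for Sp8.

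**Figure D2:**
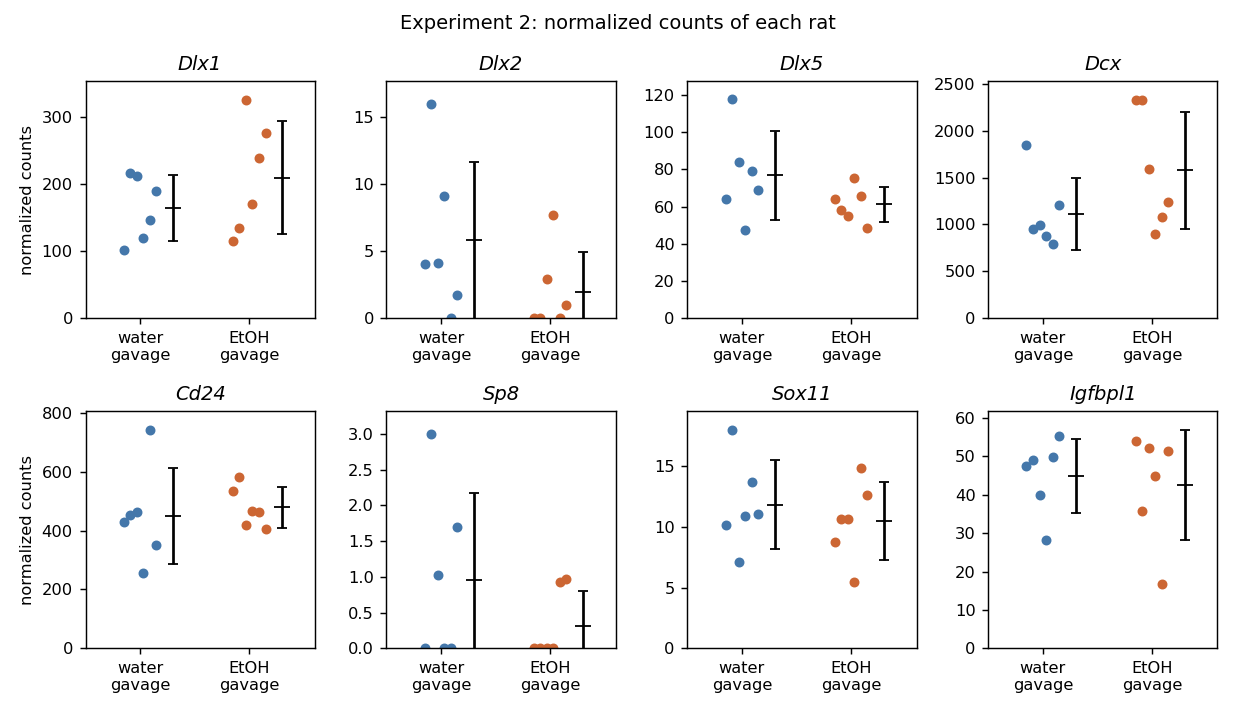
Normalized counts of the 8 genes in each rat of experiment 2 (y axes from 0), with water gavage rats in blue and EtOH gavage rats in orange, and the mean ± SD of each group of 6 in black. The groups overlap for all 8 genes, and Sp8 and Dlx2 are at 0 in 7 and 4 of the 12 rats.

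**Figure D3:**
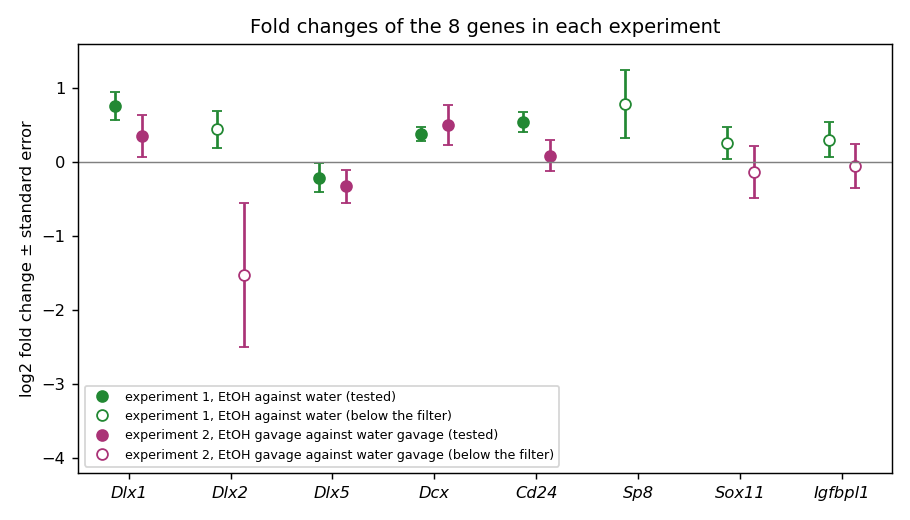
The log2 fold change of each gene (y axis, with its standard error) in experiment 1 in green and experiment 2 in purple. Filled points are genes that passed the filter and open points come from the fit without the filter, and Sp8 of experiment 2 is left out because it had only 8 reads. Dlx1 and Dcx are above 0 and Dlx5 below 0 in both experiments, with wider errors in experiment 2.

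The other gene lists gave little in experiment 2. Of the 16 other neuroblast genes tested, 0 had an unadjusted P under 0.05 in either direction. The lowest values of P in that list belonged to the adhesion molecule gene Ncam1, with a log2 fold change of -0.17 (standard error 0.12), and to Tubb3, at -0.82 (standard error 0.60). Tubb3, a tubulin of neurons, ranged from 368.5 to 2866 normalized counts after water gavage and from 116.6 to 1670 after EtOH gavage. Among genes of stem and dividing cells, 0 of 8 passed, with the receptor gene Notch1 at -0.68 (standard error 0.43) and the replication clamp gene Pcna at 0.18 (standard error 0.13). For Top2a the log2 fold change was -0.14 (standard error 0.54). In the other lists the lowest values of P belonged to Lhx8, at -0.62 (standard error 0.32), and Lhx6, at -0.34 (standard error 0.25), for interneurons, and to Olig1, at -0.46 (standard error 0.22), and Olig2, at -0.42 (standard error 0.20), for oligodendrocyte precursors. They further belonged to Synpr, at 0.25 (standard error 0.14), and Calb1, at 0.03 (standard error 0.30), for olfactory neurons, to Cux2, at -0.36 (standard error 0.44), and Slc17a7, at -0.40 (standard error 1.17), for cortex, and to Lhx2, at -0.24 (standard error 0.25), and Trpc4, at -0.29 (standard error 0.43), for septum. The single ependymal gene tested, Ak7, was at -0.89 (standard error 0.67), and the enkephalin gene Penk was at -0.44 (standard error 0.22). Ak7 and Lhx8 passed the filter only through the water gavage group, with means of 90.4 and 91.4 against 48.7 and 59.7 after EtOH gavage. The adenosine receptor gene Adora2a was the only list gene with an unadjusted P under 0.05, at a log2 fold change of -0.54 (standard error 0.24) (edgeR FDR 0.675).

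Levels of several members differed between the experiments. Mean levels, normalized separately in each experiment, were 5.31 CPM in experiment 1 and 0.51 CPM in experiment 2 for Dlx2, a ratio of 10.4. Sp8 had 2.62 and 0.0836 CPM, a ratio of 31.4 that rests on 104 and 8 reads, and Sox11 had 10.9 and 1.47 CPM, a ratio of 7.42. Dlx1 and Dlx5 were also lower in experiment 2, at 24.6 and 9.09 CPM against 55.2 and 23.5 CPM. By contrast, Dcx had 170 and 177 CPM and Cd24 44.2 and 61.1 CPM. Over the 8176 genes tested in both experiments, the ratio of experiment 1 to experiment 2 had a median of 0.98, with the middle 50% between 0.768 and 1.4. Library type, read length, sequencer, exposure and the set of rats changed together between the experiments and cannot be told apart.

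How far rats of the same group differed also depended on the gene. In experiment 1, the SD of log2 CPM within groups was 0.17 for Dcx, 0.23 for Cd24, 0.36 for Dlx5 and 0.40 for Dlx1, where the median over all genes tested was 0.16 and the middle 50% lay between 0.12 and 0.23. All 4 were therefore above that median, and Dlx1, Dlx5 and Cd24 were above the middle 50% of genes. In experiment 2, the same SD was 0.34 for Dlx5, 0.39 for Cd24, 0.51 for Dcx and 0.53 for Dlx1, with a median of 0.34 over all genes and a middle 50% between 0.24 and 0.51. Dlx1 and, narrowly, Dcx were above the middle 50% there, while Dlx5 was close to the median.

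Whether the members moved together from rat to rat was examined within groups, after removal of each group mean from the log2 CPM values. In experiment 1, 23 of the 28 pairs of members were positively correlated, with a median Pearson's r of 0.29 and a range from -0.63 to 0.94. Over all pairs of the 8655 genes tested the median was 0.00, the middle 50% lay between -0.28 and 0.27, and 49.9% of pairs were above 0. That background holds only genes that passed the filter, and over the 6 pairs of the 4 members that passed it the median r was 0.01 in experiment 1 and -0.03 in experiment 2. Dlx5 took part in all 5 negative pairs, and among the 21 pairs without it, a set chosen after seeing the data, all 21 were positive. In experiment 2, 17 of 28 pairs were positive, the median r was 0.08 and the range was from -0.50 to 0.65, beside a middle 50% of all gene pairs from -0.56 to 0.56. Dlx5 was negatively correlated there with 1 of the 7 other members, Dcx.

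Of the 56 pairs of both experiments, 2 passed an adjusted p under 0.05, both in experiment 1. Dlx1 and Sp8 had an r of 0.94 (p = 0.0011 from 100000 permutations of rats within groups, adjusted p = 0.0308) and a Spearman's rho of 0.90 (permutation p = 0.00289, adjusted p = 0.0809). The r was 0.90 after removal of the 2 rats farthest from the median of Dlx1. Dlx2 and Dcx had an r of 0.74 (permutation p = 0.00041, adjusted p = 0.023) and a rho of 0.82 (permutation p = 0.00066, adjusted p = 0.037), and the r without the 2 farthest rats was 0.81. Dlx1 and Cd24 followed with an r of 0.79 (permutation p = 0.015, adjusted p = 0.242), which fell short after adjustment. In experiment 2, Dlx1 and Sp8 again had the highest r, 0.65 (permutation p = 0.0216, adjusted p = 0.242), but over few Sp8 reads, and Dlx2 and Dcx had an r of -0.30. Whether the correlations differed between the experiments was not tested.

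**Figure D4:**
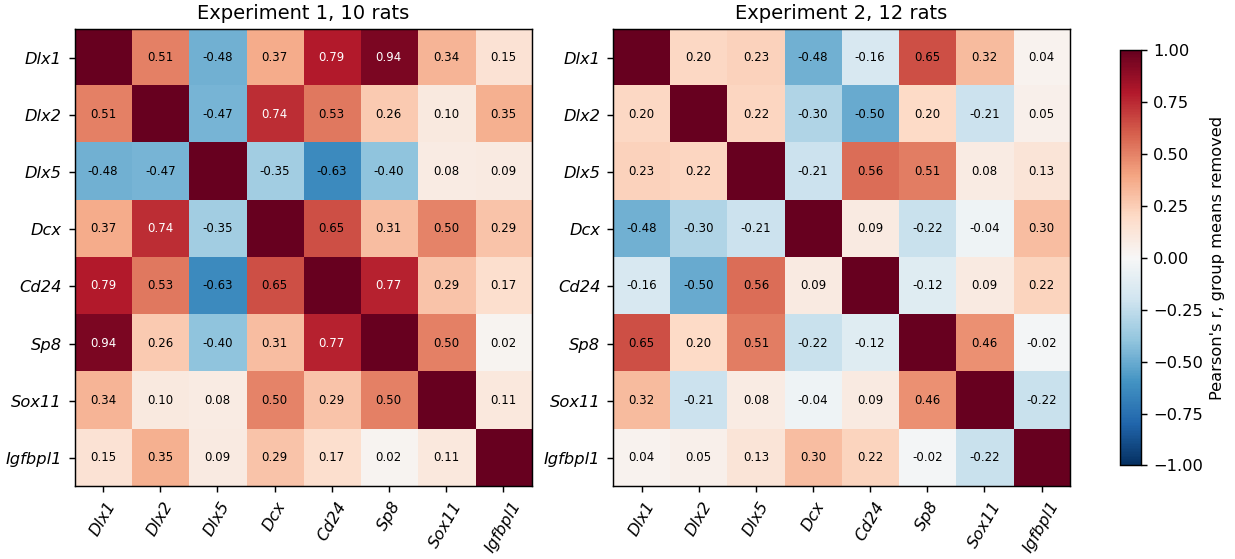
Pearson's r (colour scale from -1 in blue to 1 in red) of each pair of the 8 genes over the 10 rats of experiment 1 and the 12 rats of experiment 2, with group means removed. In experiment 1 all pairs without Dlx5 are above 0, up to 0.94 for Dlx1 and Sp8, while in experiment 2 values of both signs occur across the genes.

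Rats were also compared for the members and 6 genes of dividing, stem and ventricle wall cells (Vim, Top2a, Mki67, Egfr, Foxj1 and Ak7). Of the 96 relations in both experiments, 3 of experiment 1 and 0 of experiment 2 passed an adjusted p under 0.05. Dlx1 and Vim were ordered alike within groups over all 10 rats of experiment 1, with an r of 0.98 (permutation p = 4e-05, adjusted p = 0.00384), a rho of 1 (permutation p = 4e-05, adjusted p = 0.00384) and an r of 0.99 without the 2 rats farthest from the median of Vim. Groups of 5 rats have fewer distinct arrangements than the 100000 draws, so exact p values for this pair would be higher than 4e-05. Vim had log2 CPM values of 5.40, 6.35, 6.06, 5.99 and 6.62 in the water rats and 6.23, 7.05, 7.41, 6.95 and 6.93 in the EtOH rats. Water replicate 1 was the lowest and EtOH replicate 3 the highest rat for both genes. Sp8 was related to Vim (r = 0.95, permutation p = 0.00081, adjusted p = 0.0389) and to Top2a (r = 0.87, permutation p = 0.00123, adjusted p = 0.0394), and the r without the 2 farthest rats was 0.83 and 0.74. The rho values of Sp8 were 0.90 with Vim (permutation p = 0.00255, adjusted p = 0.122) and 0.86 with Top2a (permutation p = 0.00934, adjusted p = 0.159). Several members also followed the first principal component of experiment 1 within groups, with r of 0.88 for Dlx1, 0.83 for Cd24, 0.79 for Sp8 and -0.77 for Dlx5, and the part of this shared axis in the relations with Vim and Top2a was not tested. For Dcx, r with the 6 genes was between -0.27 and 0.32 in experiment 1, and for Igfbpl1 between -0.40 and 0.39. In experiment 2, the r of Dlx1 and Vim was 0.03 (permutation p = 0.946, adjusted p = 0.952), with a rho of 0.07 (permutation p = 0.852, adjusted p = 0.938) and an r of 0.08 without the 2 farthest rats. Outside these 6 genes, r of Dlx1 within groups was 0.92 with Tubb2b, 0.81 with Tubb3 and 0.68 with Slc17a7 in experiment 1. The same values in experiment 2 were 0.74, 0.71 and 0.66, and these relations were not tested.

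The share of reads outside annotated genes was the other measure set beside each member, in 16 relations. In experiment 2, its r within groups was 0.77 with Dcx (permutation p = 0.00846, adjusted p = 0.108) and -0.74 with Dlx1 (permutation p = 0.0135, adjusted p = 0.108), with rho values of 0.72 (permutation p = 0.0177, adjusted p = 0.225) and -0.63 (permutation p = 0.0463, adjusted p = 0.225). Without the 2 rats farthest from the median share, r was 0.54 and -0.49. None of the 16 relations passed an adjusted p under 0.05. In experiment 1, where the share lay between 48.43% and 51.14%, r was 0.41 with Dcx (permutation p = 0.226, adjusted p = 0.452) and -0.62 with Dlx1 (permutation p = 0.0848, adjusted p = 0.271), with rho values of 0.30 (permutation p = 0.4, adjusted p = 0.582) and -0.65 (permutation p = 0.0683, adjusted p = 0.225). Without the 2 farthest rats those r values were 0.16 and -0.46.

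**Figure D5:**
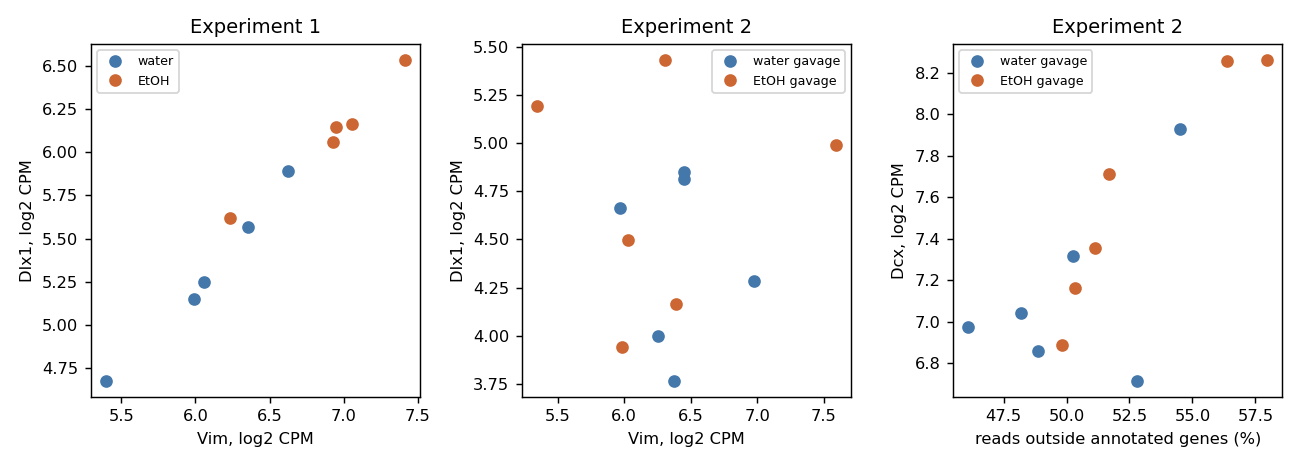
Log2 CPM of Dlx1 against log2 CPM of Vim in each rat of experiment 1 (left) and experiment 2 (middle), and log2 CPM of Dcx against the share of reads outside annotated genes in experiment 2 (right), with water or water gavage rats in blue and EtOH or EtOH gavage rats in orange. The points of experiment 1 follow a rising line in both groups (r = 0.98 within groups), those of experiment 2 do not (r = 0.03), and Dcx is highest in the 3 libraries with the largest share.

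Genes outside the list were ranked by their correlation within groups with the mean z score of the 8 members, as a description without a test. In experiment 1 the first 5 were Creld2, Tubb2b, Esd, Ccdc22 and Rnf115, with r from 0.94 to 0.91 over 10 rats. In experiment 2 they were Cdon, Dph2, Eif3b, Lsg1 and Top2a, with r from 0.86 to 0.72 over 12 rats. Of the first 100 genes in each experiment, 2 (2% of each list) were shared, Vav2 and St6galnac5. The members themselves followed their own mean unequally. In experiment 1 r was 0.79 for Dlx1, 0.78 for Cd24 and 0.76 for Dcx but -0.25 for Dlx5, while in experiment 2 it was 0.73 for Dlx5 and 0.04 for Dcx.

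As a count for each rat, the number of the 8 members above their median over experiment 1 was 3, 2, 1, 2 and 3 in the water rats and 3, 6, 6, 7 and 7 in the EtOH rats. EtOH replicate 1 was thus within the range of the water group, and the other 4 EtOH rats were above it. In experiment 2, the number was 2, 6, 5, 2, 4 and 6 after water gavage and 3, 2, 4, 3, 5 and 5 after EtOH gavage, so the EtOH gavage rats lay within the range of the water gavage rats.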

How the data were processed

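Reads were counted for 22 rats. The deposited files hold the raw read count of each gene, which the authors made by alignment to rn6 (Rnor_6.0) with TopHat2 2.0.13 and assignment with htseq-count (HTSeq 0.5.3p3 and 0.6.0 are named in the submitters' processing notes). The annotation release and counting options were not given in the sources used here, and reads with several alignments are not in the gene counts. The 5 summary lines of each file, 68.22% to 78.35% of the reads listed in it, were left out of library sizes and tests. The number of unused columns was 0.

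The experiments were fitted apart, by the quasi-likelihood test of edgeR 4.0.16 under R 4.3.3, after TMM scaling. Genes were kept if their base mean exceeded the median over the 17310 listed (43.636 and 66.443), and Benjamini-Hochberg adjustment covered the 8655 genes tested. Each standard error is the fold change divided by the root of its F value. Log2 CPM values used a prior count of 2. Correlations used log2 CPM with group means removed and 100000 permutations of rats within groups. Named were all members, the 2 genes of each other list with the lowest P in each experiment, the 5 genes most like the members and those within the first 100 in both experiments, and fixed tissue markers. Other list genes with an unadjusted P under 0.05, and Fezf2, Isl1, Nrep, Top2a and Tubb3 where outside that rule, were named after their values were seen. The alternatives were DESeq2 1.42.0, its size factors in edgeR, other filters, all 4 groups in one fit, a replicate block and each rat left out. Added after seeing the data were the fits that leave out 4 libraries or take the outside-gene share as a covariate. The members and lists were chosen with earlier results of these data known. The fits were tested on simulated counts.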

Additional observations from a re-analysis of the deposited data

Results flagged for a closer look

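A search was made in each group for a rat far from the others, over the 8 members and their mean deviation from the experiment's average. Of 36 groups, 1 held such a rat, where about 1.8 would by chance, since about 1 in 20 groups exceeds the limit. It was water gavage replicate 2, whose mean log2 deviation over the 8 members was 0.573, against -0.238 to 0.057 in the other water gavage rats, the distance to the nearest being 0.636 of the whole range. This rat held 16 of the 36 Dlx2 reads and 3 of the 6 Sp8 reads of its group. Without it, the median log2 fold change of the tested members was 0.45, where Dlx5 no longer passed the filter.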

How the results depend on the processing

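In experiment 1, 3 of 4 tested members were higher under each alternative with the main filter, and the median log2 fold change was 0.39 to 0.53 with single rats left out. Without a filter 7 of 8 were higher, and with at least 10 counts in every sample 5 of the 6 then tested. List genes at an FDR under 0.1 numbered 4 with DESeq2 and 4 without water replicate 5, and 0 to 4 over all rats left out. In experiment 2, 0 members had an FDR under 0.1 under every alternative run, and 2 to 3 of the tested members were higher. Their median log2 fold change was -0.0896 without a filter, where Dlx2 and Sp8 rest on few reads, and 0.125 (without water gavage replicate 4) to 0.45 (without water gavage replicate 2) with single rats left out. It was 0.0279 after adding the outside-gene share as a covariate. Small fold changes of experiment 2 changed sign, Cd24 to -0.0445 with that covariate, and with single rats left out Cd24 lay between -0.0286 and 0.294, Sox11 between -0.251 and 0.0136 and Igfbpl1 between -0.152 and 0.12. The cause was not tested.

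Whether the replicate numbers of the labels pair the rats could not be settled. The correlation of the deviations of same-numbered rats ranged from -0.125 to 0.144 in experiment 1. In experiment 2, where the first component held 74% of the variance, it ranged from -0.759 to 0.835, and 4 of 6 pairs were above 0.1. A rat matched its own number best in 1 of 5 pairs and 0 of 6. The lowest FDR of any gene in experiment 1 went from 0.536 to 0.128 with a replicate block. With a replicate block, 0 members had an FDR under 0.1 in experiment 2, Dcx had an unadjusted P under 0.05 at a log2 fold change of 0.47, and the number of genes with an unadjusted P under 0.05 went from 115 to 414. The median pairwise r of the members in experiment 2 was -0.0525 with the replicate block and -0.0523 to 0.165 with single rats left out, the lowest without water gavage replicate 4. It was 0.21 without the 4 libraries. In experiment 1 it was 0.12 to 0.44 with single rats left out, and the r of Dlx1 and Vim 0.97 to 0.99. In experiment 2, Dlx2 and Sp8 had 47 and 8 reads in libraries deeper than those of experiment 1, where they had 205 and 104.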
